A study of Rattus norvegicus with 6 samples.

Results

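Ribosome biogenesis and RNA polymerase I (Pol I) are represented here by 43 protein_coding genes, of 34156 genes in the count table. They were chosen by name as Pol I subunits (Polr1), nucleolar proteins of the Nop, Utp, Rrp and Imp families, and Fbl, Ncl, Dkc1, Bop1, Nolc1, Pes1, Wdr12, Gar1, Nhp2 and Ubtf. RNA-seq was done on cultured rat fibroblast-like synoviocytes (RA-FLS), joint-lining cells labelled as rheumatoid arthritis with wild-type genotype, in 3 libraries treated with TNF-α at 10 ng/ml (TNF-α group) and 3 libraries given emodin at 80 μmol/L beside the same TNF-α dose (TNF-α+EMO group). Emodin (EMO) is an anthraquinone from rhubarb. Both groups carry TNF-α, so an effect of TNF-α itself was not compared. The labels give day 5, whereas the methods of the study describe a shorter incubation. The cells came from a commercial collection, and the methods call the 3 libraries of a condition biological replicates, while the labels do not say whether they are separate cultures, so p-values measure the spread between these libraries.

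Ribosome biogenesis is the assembly line that makes ribosomes, and it begins in the nucleolus. Pol I transcribes the repeated ribosomal DNA into a long precursor rRNA, with the help of the DNA-binding factor Ubtf. Small nucleolar ribonucleoproteins (snoRNPs) then modify the precursor, the small subunit (SSU) processome folds and cuts it on the way to the 40S subunit, and a separate set of factors builds the 60S subunit. The pathway is known for following cell growth, and it takes a large share of the transcription of a dividing cell.

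Libraries held 16813322 to 17794455 counts, and all 43 genes reached the minimum of 10 counts in at least 3 libraries. Counts were scaled by TMM, the groups were tested with the quasi-likelihood method of edgeR, and a gene is called higher or lower (with EMO) where its adjusted p is under 0.05 over all 13614 genes tested. Of 12 fibroblast and FLS markers, 7 passed the minimum and all 7 were lower with EMO, the 12 summed to 200434 to 220563 normalized counts per TNF-α library against 35128 to 37820 per TNF-α+EMO library, and Thy1, Pdpn, Prg4, Fap and Clic5 had at most 3 counts in every TNF-α+EMO library. For 1 of the 12 markers, every TNF-α library had at most 3 counts as well. All 6 markers of cycling cells were lower, with a summed level of 29179 to 29923 against 5557 to 5893. Summed levels were also lower for the markers of mural cells (579 to 631 against 16.4 to 26.8) and endothelial cells (69.2 to 76.5 against 13.2 to 21.7), of which 2 and 1 were tested and all were lower. Macrophage markers (sum 1200.4 to 1302 against 747 to 818) went both ways, with 2 of 3 tested higher and 1 lower, as did epithelial markers (sum 9942 to 10802 against 1985 to 2333), with 1 of 2 tested higher and 1 lower. Of these lists, Tyrobp, Epcam, Rgs5 and Kdr were at 0 in every library, and T cell markers summed to at most 3.1. The part of these marker changes in the results was not tested, and in bulk RNA fewer cells of a type and less RNA per cell cannot be told apart. TNF-α+EMO replicate 3 stood apart from its group. The chi-square of their counts, divided by the number of genes and close to 1 where libraries differ by sampling only, was 23.5 and 15.1 between it and replicates 1 and 2, against 6.27 between those replicates and 4.62 to 5.73 between TNF-α libraries.

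The promoters of the genes held 2 of 4 searched motifs more often than promoters of tested genes in general. RefSeq windows of 250 bases before to 50 after the transcription start (assembly GRCr8, which is not the Rnor_6.0 build of the counts) matched 41 of the 43 genes by symbol. The E-box CACGTG, a palindrome that reads the same on both strands and is bound by MYC and related factors, was in 13 of the 41 windows (31.7%), against 9.14% of 10260 windows of tested protein_coding genes and 6.42% of all 33469 windows. The letters CCGGAAGT on either strand, which ETS family factors recognize, were in 11 of 41 windows (26.8%), against 8.24% and 3.81%. The longer motifs searched, a palindrome centred on CGCG and the YY1 motif, were in 0 of the 41 windows, and in 0.994% and 2.62% of the windows of tested genes. A match describes the letters and is not evidence of binding.

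Stretches of 200 bases before to 30 after the start are shown for a pair of strongly raised genes with E-boxes (Utp18 and Dkc1), for the paralogs Rrp1 and Rrp1b, which moved in opposite directions, and for 2 lower genes (Polr1a and Nop56). E-boxes and CCGGAAGT or its reverse complement are in capitals, and all are printed 5′ to 3′ in the sense of the gene.
Utp18 promoter (chr10:79335728-79335957, minus strand, GRCr8): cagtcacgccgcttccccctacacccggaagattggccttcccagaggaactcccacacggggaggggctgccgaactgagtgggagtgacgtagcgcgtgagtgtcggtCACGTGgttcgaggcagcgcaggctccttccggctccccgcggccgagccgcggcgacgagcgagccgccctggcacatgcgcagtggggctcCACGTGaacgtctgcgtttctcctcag
Dkc1 promoter (chrX:157751451-157751680, plus strand, GRCr8): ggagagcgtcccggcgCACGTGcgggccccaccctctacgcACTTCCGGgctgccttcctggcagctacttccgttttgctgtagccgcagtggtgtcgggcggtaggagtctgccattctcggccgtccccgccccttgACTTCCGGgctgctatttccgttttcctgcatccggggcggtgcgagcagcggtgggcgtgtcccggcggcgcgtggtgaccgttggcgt
Rrp1 promoter (chr20:10260380-10260609, plus strand, GRCr8): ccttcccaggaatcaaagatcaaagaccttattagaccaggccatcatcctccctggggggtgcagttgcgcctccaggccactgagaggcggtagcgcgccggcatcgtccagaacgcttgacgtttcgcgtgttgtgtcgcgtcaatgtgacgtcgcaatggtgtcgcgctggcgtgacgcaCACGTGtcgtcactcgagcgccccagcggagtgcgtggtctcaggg
Rrp1b promoter (chr20:10122625-10122854, plus strand, GRCr8): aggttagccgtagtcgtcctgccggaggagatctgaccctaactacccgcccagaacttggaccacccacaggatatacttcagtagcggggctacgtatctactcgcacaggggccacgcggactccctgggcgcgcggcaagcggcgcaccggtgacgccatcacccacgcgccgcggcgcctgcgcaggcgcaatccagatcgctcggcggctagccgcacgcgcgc
Polr1a promoter (chr4:105508105-105508334, plus strand, GRCr8): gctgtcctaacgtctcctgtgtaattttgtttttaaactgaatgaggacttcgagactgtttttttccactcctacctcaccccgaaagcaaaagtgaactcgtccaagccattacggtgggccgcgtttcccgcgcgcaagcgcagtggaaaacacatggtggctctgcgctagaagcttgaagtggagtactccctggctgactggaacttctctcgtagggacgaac
Nop56 promoter (chr3:137929979-137930208, plus strand, GRCr8): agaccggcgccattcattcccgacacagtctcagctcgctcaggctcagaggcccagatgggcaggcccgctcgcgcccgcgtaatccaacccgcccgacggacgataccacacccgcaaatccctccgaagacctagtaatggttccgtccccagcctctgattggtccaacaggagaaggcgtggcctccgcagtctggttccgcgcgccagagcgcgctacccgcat
Utp18 held 2 E-boxes, 1 of them within the bases after the start. Dkc1 held 1 E-box and the ETS letters at 2 places. Rrp1 held an E-box and Rrp1b, Polr1a and Nop56 held none of the letters searched. Of the 13 genes with an E-box, 10 were higher with EMO, 0 were lower and 3 were not called, with a median log2 fold change of 0.76. Of the 28 genes without one, 22 were higher, 4 lower and 2 not called, with a median of 0.83. The difference between these medians was not tested. Over all tested protein_coding genes with a window, 52.1% of the 911 with an E-box were higher, against 39.8% of the 8261 without one.

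Most of the 43 genes rose with EMO relative to the rest of the library. Such counts do not give the amount of mRNA per cell. There were 34 genes called higher and 4 called lower, and Polr1e, Fbl, Nhp2, Utp20 and Rrp8 were not called. Over all genes tested, 39.4% were called higher and 41.4% lower (80.8% in either direction), so the share of higher calls among the 43 (79.1%) was above the background and the share of lower calls (9.3%) below it. At a log2 fold change over 1 in addition, 16 were higher and 1 lower (background 19.5% and 27.8%). The median log2 fold change was 0.83, against -0.01 over all genes tested, and values ran from -1.20 (Polr1a) to 1.83 (Utp18). The groups did not overlap in 40 of the 43 genes, 36 of them higher and 4 lower (background 82.9%, of which 40.3% higher and 42.5% lower). Added together, the 43 genes took 0.2909% to 0.3003% of the counts of a TNF-α library and 0.5146% to 0.5301% of a TNF-α+EMO library. The summed level rose from 48658 ± 507 to 93727 ± 2272 normalized counts (SD, n = 3 each), 1.93-fold, and 1.77-fold without Ncl, the most abundant of them. Without TNF-α+EMO replicate 3, 35 were higher and 4 lower.

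**Figure D1:**
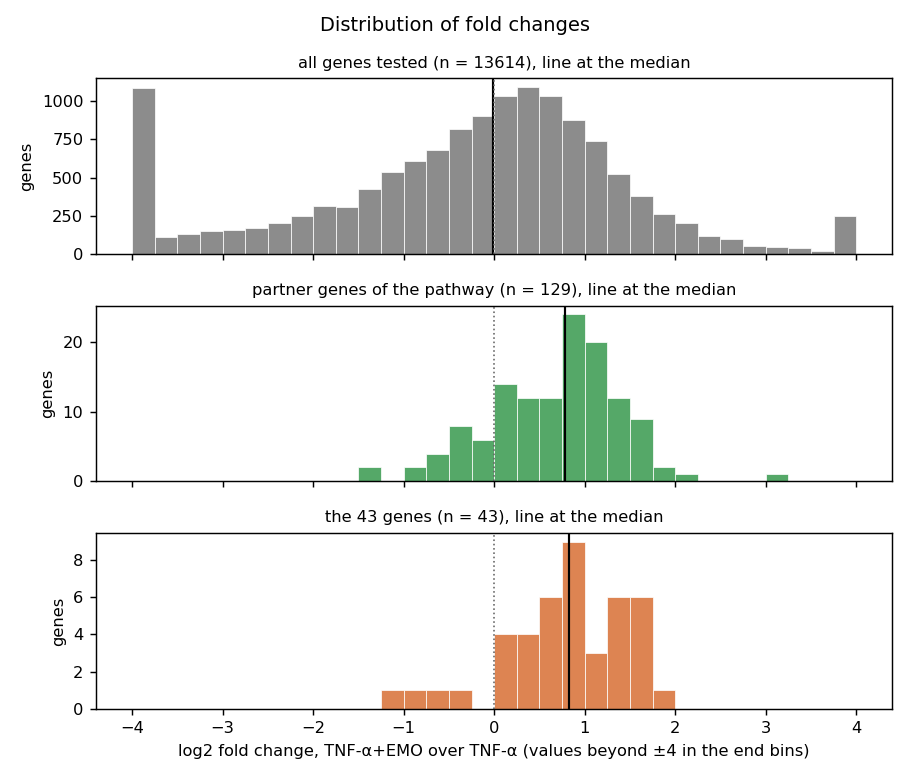
Histograms of log2 fold change (TNF-α+EMO over TNF-α, horizontal axis) against the number of genes (vertical axis) for all 13614 genes tested, 129 partner genes of the pathway and the 43 genes described here, with values beyond the axis placed in the end bins. The vertical lines mark medians of -0.01, 0.78 and 0.83.

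**Figure D2:**
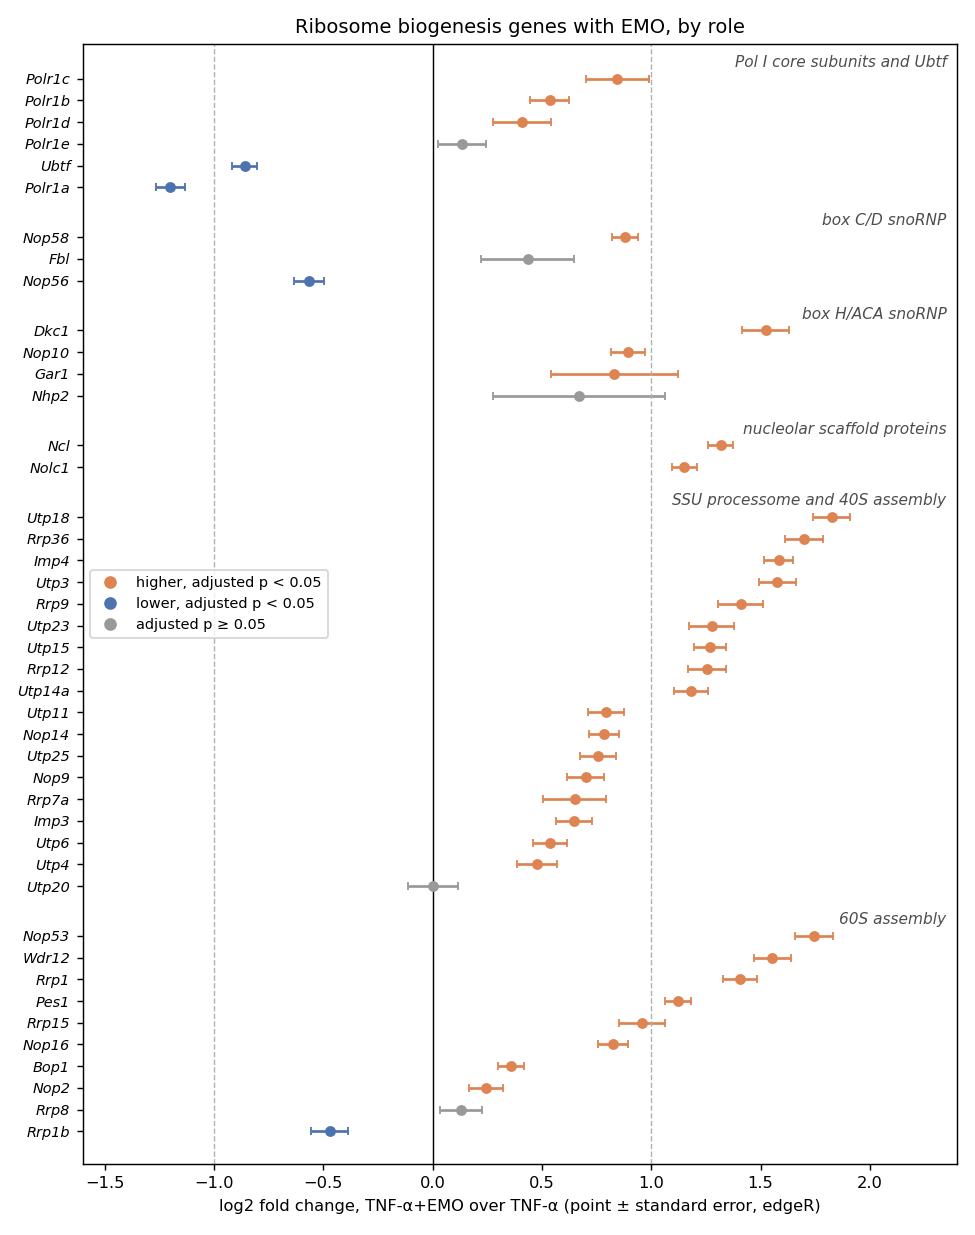
Log2 fold change (TNF-α+EMO over TNF-α, horizontal axis) of each of the 43 genes, grouped by role, as points with the standard error from edgeR, with dashed lines at -1 and 1. The 4 points coloured as lower are Polr1a, Ubtf, Nop56 and Rrp1b, and 17 of the 18 SSU genes are coloured as higher.

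Among the Pol I subunits named Polr1 and Ubtf, 3 genes were higher (50%), 2 lower (33.3%) and 1 was not called. These shares were nearer to the 39.4% and 41.4% of all genes tested than those of the 43 genes together. Further Pol I subunits, under other names, are among the partner genes below. Polr1a encodes the largest, catalytic subunit of Pol I (chromosome 4, 99823252 to 99887132, Rnor_6.0 as deposited). Polr1a had 2093, 2017 and 2015 normalized counts with TNF-α alone, against 933, 843 and 889 with EMO. All TNF-α+EMO values lay below all TNF-α values (log2 fold change -1.20, SE 0.07, adjusted p = 1.8e-08). Ubtf (chromosome 10, 90250275 to 90265017) opens and marks the active ribosomal DNA repeats. Ubtf had 4049, 3872 and 3835 normalized counts with TNF-α alone, against 2100, 2156 and 2226 with EMO. The groups did not overlap (log2 fold change -0.86, SE 0.06, adjusted p = 1.1e-07).

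The other Polr1 genes did not follow Polr1a. Polr1b encodes the second largest subunit, which forms the catalytic centre with Polr1a. Polr1b had 364, 358 and 409 normalized counts with TNF-α alone, against 556, 554 and 529 with EMO. It rose, with no overlap (log2 fold change 0.53, SE 0.09, adjusted p = 1.8e-04). Polr1c and Polr1d encode a pair of assembly subunits that Pol I shares with RNA polymerase III. Polr1c had 720, 692 and 779 normalized counts with TNF-α alone, against 1076, 1217 and 1640 with EMO. It was higher in every TNF-α+EMO library and highest in replicate 3 (log2 fold change 0.84, SE 0.14, adjusted p = 4.5e-04). Polr1d had 911, 791 and 879 normalized counts with TNF-α alone, against 943, 1085 and 1396 with EMO. Its groups were separate but close (log2 fold change 0.41, SE 0.13, adjusted p = 0.017). Its adjusted p was 0.058, 0.13 and 0.083 when TNF-α replicate 1, 2 or 3 was left out. Leaving out a library also changed which genes passed the filter, and the scaling with them. Polr1e, a subunit that takes part in initiation, was not called. Polr1e had 254, 262 and 277 normalized counts with TNF-α alone, against 291, 314 and 265 with EMO. Its groups overlapped, and the log2 difference was 0.13 (95% interval -0.08 to 0.35, adjusted p = 0.28). The summed level of the 6 genes was 8193 ± 199.5 normalized counts in the TNF-α group and 6337 ± 543 in the TNF-α+EMO group (SD, n = 3 each).

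**Figure D3:**
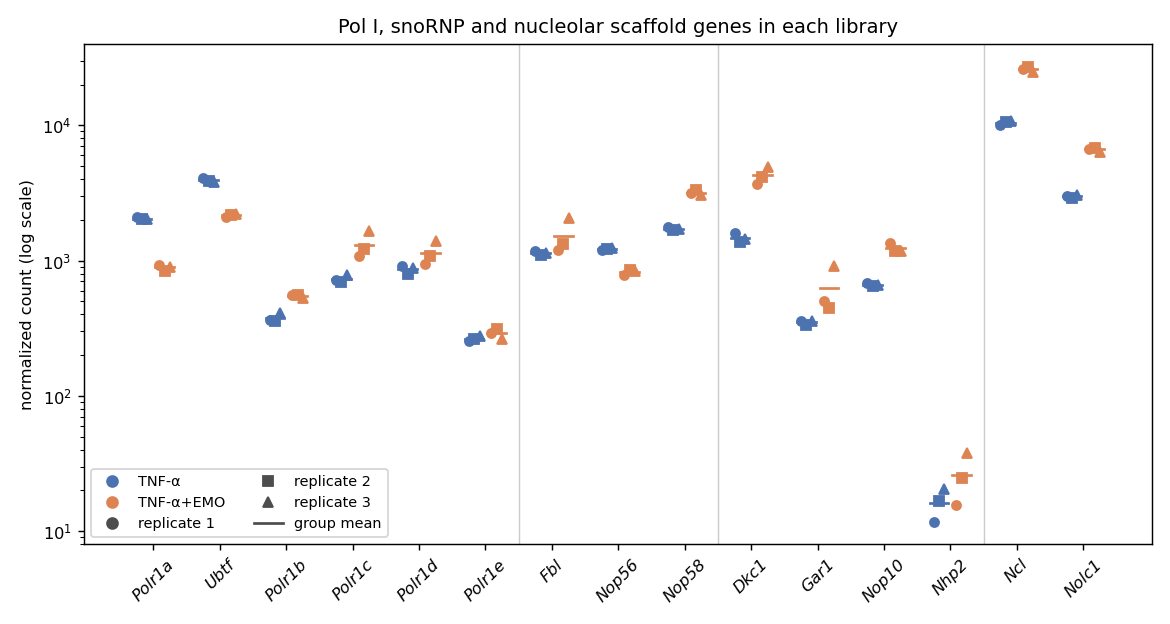
Normalized counts (vertical axis, log scale) of the Pol I, snoRNP and nucleolar scaffold genes in each of the 6 libraries, with the shape giving the replicate number and bars the group means. Polr1a, Ubtf and Nop56 sit lower in the TNF-α+EMO libraries, and TNF-α+EMO replicate 3 is the highest library for Fbl (2067) and Gar1 (919).

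Box C/D snoRNPs methylate rRNA at sites chosen by their guide RNA. The 3 core proteins grouped under this role here, Nop58, Nop56 and Fbl, split 3 ways. Nop58 and Nop56 are related proteins that bind the guide RNA side by side. Nop58 had 1769.5, 1686 and 1718 normalized counts with TNF-α alone, against 3152, 3300 and 3074 with EMO. It rose, with no overlap (log2 fold change 0.88, SE 0.06, adjusted p = 1.1e-07). Nop56 had 1206, 1216 and 1238 normalized counts with TNF-α alone, against 786, 856 and 831 with EMO. It fell, with no overlap (log2 fold change -0.57, SE 0.07, adjusted p = 1.7e-05). Fbl, fibrillarin, is the methyltransferase of the particle. Fbl had 1173, 1095 and 1129 normalized counts with TNF-α alone, against 1189, 1332 and 2067 with EMO. Replicate 3 of the TNF-α+EMO group was far above the other two, the groups were separate by a narrow margin, and the gene was not called (log2 fold change 0.43, SE 0.21, adjusted p = 0.10). Without TNF-α+EMO replicate 3 the log2 fold change was 0.18 (adjusted p = 0.025), and without replicate 1 it was 0.61 (adjusted p = 0.027), so the size of the difference and the call change with single libraries. Fbl also overlaps Dyrk1b by 373 bases on the same strand, which had up to 1144 counts. Snu13, a further core protein of these particles, was listed with the SSU partners below. It rose, with no overlap (log2 fold change 1.34, SE 0.07, adjusted p = 8.2e-09), and was named after its values were seen.

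Box H/ACA snoRNPs convert uridine of rRNA to pseudouridine. Dkc1, dyskerin, is the enzyme of the particle (chromosome X, 155844857 to 155862475, minus strand in Rnor_6.0), and its promoter with an E-box is shown above. Dkc1 had 1609.6, 1379.8 and 1449 normalized counts with TNF-α alone, against 3663, 4168 and 4926 with EMO. It was higher in all TNF-α+EMO libraries (log2 fold change 1.52, SE 0.11, adjusted p = 3.6e-07). Nop10, a small protein that holds dyskerin in shape, also rose. Nop10 had 681, 652 and 660.5 normalized counts with TNF-α alone, against 1339.8, 1176 and 1184 with EMO. Its groups did not overlap (log2 fold change 0.89, SE 0.08, adjusted p = 1.1e-06). Gar1, a core protein that binds dyskerin, was highest in 1 library. Gar1 had 360, 334 and 357 normalized counts with TNF-α alone, against 502, 448 and 919 with EMO. Its groups were separate (log2 fold change 0.83, SE 0.29, adjusted p = 0.038). Without TNF-α+EMO replicate 3 the log2 fold change was 0.46 (adjusted p = 2.6e-04), and the adjusted p was 0.11, 0.12 and 0.089 without TNF-α replicate 1, 2 or 3 and 0.056 without TNF-α+EMO replicate 1. Each of these fits also tested fewer genes. Nhp2, the remaining core protein, had only 12 to 37 counts in a library and was not called. Nhp2 had 11.8, 16.6 and 20.5 normalized counts with TNF-α alone, against 15.5, 24.6 and 37.7 with EMO. Its groups overlapped, and the log2 difference was 0.67 (95% interval -0.10 to 1.44, adjusted p = 0.14). Without TNF-α+EMO replicate 1 it was called, at 0.95 (adjusted p = 0.036).

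Replicate 3 of the TNF-α+EMO group lay over 25% above the mean of replicates 1 and 2 in 7 of the 43 genes (Gar1, Nhp2, Fbl, Polr1c, Polr1d, Rrp7a and Dkc1), or 16.3%, against 10.8% of 10146 genes with at least 50 normalized counts in each TNF-α+EMO library, a minimum that Nhp2 does not reach. That excess was larger for shorter genes, with Spearman's rho of -0.43 with gene length over the 43 genes and -0.37 over the 10146 genes (across genes of the same libraries, which are not independent). Its part in the calls was not tested beyond the values given without that library.

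Both nucleolar scaffold genes rose. Ncl, nucleolin, binds precursor rRNA and nucleolar chromatin (chromosome 9, 93368932 to 93377643). Ncl had 9967, 10532 and 10779 normalized counts with TNF-α alone, against 26073, 27077 and 24800 with EMO. Its groups were far apart (log2 fold change 1.32, SE 0.06, adjusted p = 3.5e-09). Per kilobase of gene model, Ncl had the highest level of the 43 genes in both groups, 4038 and 10060 normalized counts. Nolc1, a phosphoprotein that carries snoRNPs between Cajal bodies and nucleolus, rose too. Nolc1 had 3021, 2904 and 3038 normalized counts with TNF-α alone, against 6708, 6838 and 6364 with EMO. No library overlapped (log2 fold change 1.15, SE 0.06, adjusted p = 9.2e-09).

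The SSU processome is the large particle that forms on the nascent precursor around the U3 snoRNP. Of its 18 genes here, 17 were higher (94.4%, against 39.4% of all genes tested), 0 lower (against 41.4%) and 1 was not called. The median log2 fold change was 0.99, and 9 of the 17 had a log2 fold change over 1. Of all genes tested, 19.5% were called higher with a log2 fold change over 1. The summed level of the 18 genes rose from 10333 ± 95.6 to 21493 ± 247 normalized counts (SD, n = 3 each), 2.08-fold. Utp18, a subunit of the UtpB complex, had the largest log2 fold change of the 43 genes (chromosome 10, 81562409 to 81587858). Utp18 had 428, 377 and 459.8 normalized counts with TNF-α alone, against 1490.4, 1495 and 1498 with EMO. The groups were far apart (log2 fold change 1.83, SE 0.09, adjusted p = 5.3e-09). Its promoter with the 2 E-boxes is shown above. Rrp36, a factor for early cleavage of the precursor, followed. Rrp36 had 384, 409.6 and 425 normalized counts with TNF-α alone, against 1205, 1319 and 1433 with EMO. The groups did not overlap (log2 fold change 1.70, SE 0.09, adjusted p = 1.3e-08).

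Imp4 forms a complex with Imp3 and Mphosph10 that helps U3 pair with the precursor. Imp4 had 946, 942 and 1029 normalized counts with TNF-α alone, against 2788, 3023 and 2923 with EMO. It rose, with no overlap (log2 fold change 1.58, SE 0.07, adjusted p = 2.1e-09). Imp3 rose as well (log2 fold change 0.65, SE 0.08). Utp3, another processome component, also rose. Utp3 had 559, 510 and 547 normalized counts with TNF-α alone, against 1455, 1630.1 and 1738 with EMO. Its groups did not overlap (log2 fold change 1.58, SE 0.09, adjusted p = 1.7e-08). Rrp36 and Imp4 had the highest levels per kilobase of the 18 genes in the TNF-α+EMO group, 1802 and 1669 normalized counts.

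The 12 remaining called SSU genes besides Imp3 had smaller log2 fold changes than these 4. Log2 fold changes were 1.41 for Rrp9, the protein that binds U3 itself, 1.28 for Utp23, 1.27 for Utp15, 1.254 for Rrp12 and 1.18 for Utp14a, with SEs of 0.07 to 0.10. They were 0.79 for Utp11, 0.78 for Nop14, 0.76 for Utp25, 0.70 for Nop9, 0.65 for Rrp7a, 0.54 for Utp6 and 0.48 for Utp4, the last with an adjusted p of 6.4e-04. Rrp7a had 198 to 383 counts and overlaps Serhl2, which had up to 172 counts, by 9853 bases on the opposite strand. That is nearly the whole span of Rrp7a, and reads of the pair cannot be told apart where the strand setting is not given. Utp20, the longest of the 43 gene models (8824 bases) and a scaffold of the particle, was not called. Utp20 had 1018, 1069.7 and 940.1 normalized counts with TNF-α alone, against 1188, 994 and 849.5 with EMO. Its groups overlapped, and the log2 difference was 0.0015 (95% interval -0.22 to 0.23, adjusted p = 0.99).

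In the 60S assembly group, 8 of 10 genes were higher (80.0%, against 39.4% of all genes tested), 1 lower (10.0%, against 41.4%) and 1 was not called. The median log2 fold change was 0.89, and the summed level was 10131 ± 85.1 in the TNF-α group against 21613 ± 1364 normalized counts in the TNF-α+EMO group (SD, n = 3 each). Nop53, which brings the RNA exosome to the 60S precursor, rose most (chromosome 1, 77836196 to 77844189). Nop53 had 2538, 2266 and 2368 normalized counts with TNF-α alone, against 7439.7, 7447 and 9129 with EMO. Its groups were far apart (log2 fold change 1.74, SE 0.09, adjusted p = 1.1e-08). Pes1, Bop1 and Wdr12 form the PeBoW complex, which is needed for processing of the 60S rRNAs. Wdr12 had 443, 422 and 432 normalized counts with TNF-α alone, against 1326, 1333 and 1146 with EMO. Wdr12 rose, with no overlap (log2 fold change 1.55, SE 0.08, adjusted p = 1.9e-08).

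Pes1 had 1892, 1854 and 1908 normalized counts with TNF-α alone, against 3914, 4190.3 and 4197 with EMO. Pes1 rose in every TNF-α+EMO library (log2 fold change 1.12, SE 0.06, adjusted p = 1.3e-08). Bop1 was higher too (log2 fold change 0.36, SE 0.06, adjusted p = 2.3e-04), and it overlaps Mroh1 on the opposite strand, which had up to 8841 counts, by 80 bases. Rrp15 and Nop16, both parts of early 60S precursors, rose with log2 fold changes of 0.96 and 0.83. Nop2, an rRNA methyltransferase long used as a proliferation marker, had a small rise (log2 fold change 0.24, SE 0.08, adjusted p = 0.014). Its adjusted p was 0.20, 0.078 and 0.14 without TNF-α replicate 1, 2 or 3, in fits that also tested fewer genes. Rrp8, another rRNA methyltransferase, was not called although its groups did not overlap, with a log2 difference of 0.13 (95% interval -0.06 to 0.32, adjusted p = 0.24), and it overlaps Ilk, which had up to 4325 counts, by 728 bases on the opposite strand. The calls of Nop2 and Polr1d were also lost with total count scaling, at adjusted p of 0.14 and 0.052.

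Rrp1 and Rrp1b are paralogs that lie near each other on chromosome 20 (10981998 to 10993280 and 10844266 to 10869821). Rrp1 had 943, 906 and 928 normalized counts with TNF-α alone, against 2214, 2465 and 2671 with EMO. Rrp1 rose, with no overlap (log2 fold change 1.40, SE 0.08, adjusted p = 2.0e-08). Rrp1b had 735, 855 and 775 normalized counts with TNF-α alone, against 587, 544 and 577 with EMO. Rrp1b fell, with no overlap (log2 fold change -0.47, SE 0.08, adjusted p = 3.7e-04).

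Partners of one complex changed by unequal amounts, which ratios of normalized counts per kilobase within each library show directly. These 11 pairs were chosen after their values were seen, so they are a description with no test. The ratio of Nop58 to Nop56 was 1.40, 1.32 and 1.32 with TNF-α alone, and it was 3.82, 3.67 and 3.52 with EMO. The ratio of Polr1b to Polr1a was 0.278, 0.284 and 0.325 in the TNF-α libraries, and it was 0.952, 1.05 and 0.951 with EMO. Rrp1 over Rrp1b went from 2.84 ± 0.272 to 10.4 ± 1.13 (SD, n = 3 each). Within PeBoW, Pes1 over Bop1 went from 1.76 ± 0.023 to 2.99 ± 0.063 and Wdr12 over Bop1 from 0.594 ± 0.018 to 1.36 ± 0.139. In the SSU processome, Imp4 over Imp3 went from 1.71 ± 0.112 to 3.27 ± 0.104, Utp18 over Utp6, both of UtpB, from 0.740 ± 0.071 to 1.81 ± 0.055, and Utp15 over Utp4, both of UtpA, from 0.782 ± 0.007 to 1.36 ± 0.097.

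**Figure D4:**
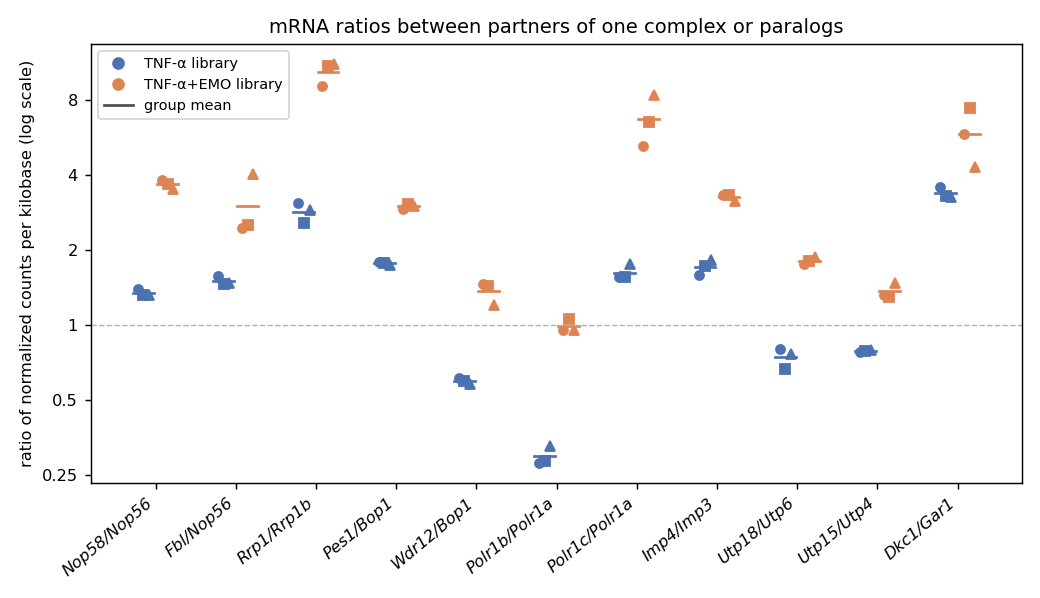
Ratio of normalized counts per kilobase between 11 pairs of partner or paralog genes (vertical axis, log scale) in each of the 6 libraries, with bars at the group means. For Nop58 over Nop56 the TNF-α+EMO libraries sit at 3.52 to 3.82 and the TNF-α libraries at 1.32 to 1.40, and the pairs were chosen after their values were seen.

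Log2 fold changes tended to be larger for shorter genes. Across the 43 genes, which share their libraries and are not independent, Spearman's rho of the log2 fold change was -0.41 with gene length. It was 0.5 with the mean normalized count per kilobase and 0.24 with the mean normalized count. Both means hold the values that make the fold change, and the level per kilobase also holds gene length. Over all 13614 genes tested rho with gene length was -0.22. Polr1a (6014 bases), Ubtf (4736) and Rrp1b (4403) are among the longest of the 43 genes, whereas Nop56 (1906) is not, and Rrp12 (4355) rose.

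**Figure D5:**
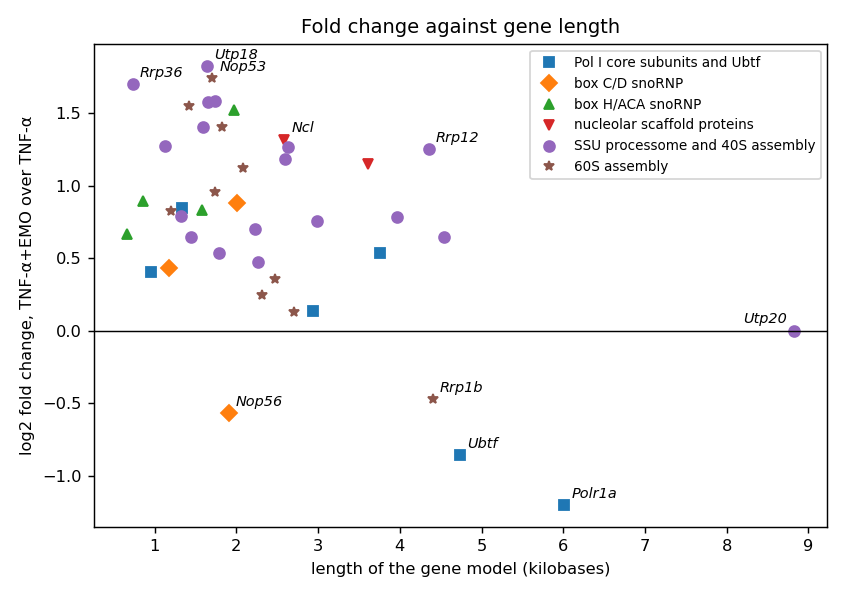
Log2 fold change (TNF-α+EMO over TNF-α, vertical axis) against the length of the deposited gene model in kilobases (horizontal axis) for the 43 genes, with symbols for roles. Of the 4 lower genes 3 are over 4 kilobases long, with Nop56 as a short one and Rrp12 as a long gene at 1.254.

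Other genes of the pathway, in 5 lists of partners, mostly rose. Of 131 partner genes found in the table, 129 were tested, 96 were higher (74.4%, against 39.4% of all genes tested), 17 were lower (13.2%, against 41.4%) and 16 were not called, with a median log2 fold change of 0.78. Among 12 tested Pol I partner subunits and initiation factors, 8 were higher (66.7%), 1 lower (8.33%) and 3 not called. Taf1a and Taf1b belong to SL1, the selectivity factor that sets Pol I on its promoter. Taf1a had 70.6, 91.7 and 88.7 normalized counts with TNF-α alone, against 809, 774 and 723 with EMO. Taf1a rose, with no overlap (log2 fold change 3.20, SE 0.12, adjusted p = 7.2e-10). Taf1b had 112, 113 and 113 normalized counts with TNF-α alone, against 388, 307 and 290.3 with EMO. Taf1b rose too (log2 fold change 1.54, SE 0.14, adjusted p = 1.7e-06). Ttf1, which ends Pol I transcription, was the lower gene (log2 fold change -0.62, SE 0.10, adjusted p = 1.9e-04). Twistnb, Rrn3 and Taf1d were not called, and Ttf1 and these 3 were named after their values were seen.

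Of 38 SSU partners, 30 were higher (78.9%) and 4 lower (10.5%), with a median log2 fold change of 0.75. Aatf, an early 40S factor, and Nob1, the nuclease that makes the last cut of the small subunit rRNA, had the largest changes. Aatf had 317, 288 and 377 normalized counts with TNF-α alone, against 1446, 1482 and 1544 with EMO. The groups did not overlap (log2 fold change 2.19, SE 0.10, adjusted p = 4.8e-09). Nob1 had 924, 898 and 1014 normalized counts with TNF-α alone, against 2646, 2832 and 2844 with EMO. Nob1 rose in every library (log2 fold change 1.55, SE 0.07, adjusted p = 3.7e-09). The lower genes, named after their values were seen, were Rcl1 (-0.64), Bms1 (-0.45), Nat10 (-0.38) and Ddx52 (-0.31), as log2 fold changes.

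Of 47 tested 60S partners, 40 were higher (85.1%) and 4 lower (8.51%), with a median of 0.92. Ddx24, an RNA helicase, and Sdad1 had the largest changes. Ddx24 had 1484, 1574 and 1500.2 normalized counts with TNF-α alone, against 5769.8, 6153 and 5518 with EMO. The groups did not overlap (log2 fold change 1.94, SE 0.06, adjusted p = 3.6e-10). Sdad1 had 562, 602 and 636 normalized counts with TNF-α alone, against 2179, 2051 and 2074 with EMO. Sdad1 rose, with no overlap (log2 fold change 1.81, SE 0.07, adjusted p = 1.4e-09). The lower genes were Gnl3l (-1.26), Pelp1 (-0.75), Ddx51 (-0.73) and Nol9 (-0.33), as log2 fold changes, again named after their values were seen.

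The remaining lists are set beside the same background of 39.4% higher and 41.4% lower. Of 10 snoRNP assembly factors, 5 were higher (50%), 2 lower (20.0%) and 3 not called, with a median of 0.19. Shq1, a chaperone of dyskerin, rose (log2 fold change 1.22, SE 0.08), as did Ruvbl2 (1.15, SE 0.09), whereas Ruvbl1, the partner of Ruvbl2 in a helicase ring, fell (-0.49, SE 0.10), as did Naf1 (-0.31, SE 0.11). Of 22 genes of the RNA exosome and pre-rRNA nucleases, 13 were higher (59.1%), 6 lower (27.3%) and 3 not called, with a median of 0.33. Rpp38 and Rpp40, proteins of RNase P and MRP, rose by log2 fold changes of 1.58 and 1.45 (SE 0.09 each), and Pop1, the largest protein of the same enzymes, fell (-1.41, SE 0.11, adjusted p = 4.9e-07). Ruvbl1, Naf1 and Pop1 were named after their values were seen.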

How the data were processed

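RNA-seq counts of 6 rat RA-FLS libraries were used. The authors deposited raw read counts per gene for each library, without normalization, on Rnor_6.0 according to the submitters' processing notes, which also name FastQC, Trimmomatic and HISAT2. The counting program, annotation version and strand setting are not given in the sources used here. The authors also deposited FPKM values (counts scaled by gene length and mapped reads) and their own comparison (group means, fold changes and p-values), and neither was used.

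A gene needed 10 or more counts in 3 or more libraries, and the genes kept were fitted with edgeR 4.0.16 in R 4.3.3 (TMM, robust quasi-likelihood F test, Benjamini-Hochberg adjustment over 13614 genes). The standard error (SE) is the log2 fold change divided by the square root of F, and intervals are 1.96 standard errors on each side. To give normalized counts, each library was scaled from its TMM library size to the mean of the 6, and levels per kilobase divide them by the deposited gene length. Depth was 16813322 to 17794455 counts per library, and the common biological coefficient of variation was 0.121. On simulated counts for 13419 genes at these depths, edgeR recovered 90.4% of genes changed by a log2 value of 1 with 3.23% false calls. The simulation changed 189 of the tested genes, with 1 spread for all genes and no library standing apart. Here 80.8% of genes were called and TNF-α+EMO replicate 3 stood apart, so that share of false calls may not hold for these data.

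The genes, lists, roles and motifs were chosen with earlier results of these data known. Values in every library are given for Pol I, snoRNP and scaffold genes, and for the SSU and 60S genes with the 4 largest changes or 2 highest levels per kilobase, and for partner lists the 2 largest changes at a mean of at least 50 counts. Some listed names (Polr2l, Heatr1, Nhp2l1, Mdn1, Eftud1, Nopchap1, Skiv2l2, Col1a2 and Pecam1) matched no protein_coding gene by name and were left out. Of these, Nhp2l1, Eftud1 and Skiv2l2 are older names of Snu13, Efl1 and Mtrex, which were listed as well, found and tested. DESeq2 1.42.0, other scalings and filters, the replicate block, leaving out each library and a stricter threshold were alternatives, and leaving out genes that overlap a gene with over 100 counts was added after seeing the data. Promoter sequences are from RefSeq.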

Additional observations from a re-analysis of the deposited data

How the results depend on the processing

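The counts of higher and lower genes stayed within 1.5 times of the reported values, among the 43 genes under 16 alternatives and among the partner genes under the 15 of these run for them. Leaving out 1 library gave 31 to 35 higher, 4 lower, 16 to 17 higher and 1 lower over 2-fold, and 87 to 100 higher and 15 to 19 lower partner genes. Over the 43 genes, the median was 0.78 with upper quartile scaling, 0.71 with total count scaling and 0.73 to 0.88 when 1 library was left out, as a log2 fold change. Total count scaling moved the median of all genes from -0.01 to -0.13, and the changes of the 43 genes moved with it. Fits without a TNF-α library kept the minimum of 3 libraries, so 12666 to 12685 genes were tested. The median of all genes was then 0.025 to 0.03, and that of the 43 genes 0.73 to 0.77. Effects of the library, the filter and the scaling cannot be told apart in these fits. In a fit with a replicate block the median was 0.79, with 34 higher and 4 lower, the block changed no call among the 43 genes, and 96 partner genes were higher and 16 lower. The main fit did not pair libraries with the same number, and the labels do not say whether they belong together. Correlations of their deviations from the group means were 0.019, -0.007 and 0.068 for numbers 1, 2 and 3. Libraries with different numbers gave -0.07 to 0.053, so these correlations cannot decide it. Utp20, which was not called under any alternative, changed sign. Its log2 difference was -0.01 with DESeq2 and with DESeq2's size factors, -0.04 with upper quartile scaling, -0.11 with total count scaling, -0.001 with no filter, -0.018 with at least 50 counts, -0.009 with the replicate block and -0.12 to 0.133 when 1 library was left out. Without the 4 genes that overlap a gene with over 100 counts, 32 were higher and 4 lower. Of the 43 genes, 37 kept their direction and call under every alternative run for them, and the exceptions were Utp20, Nop2, Polr1d, Gar1, Fbl and Nhp2. Nhp2 was not tested at a minimum of 50 counts. Fbl was called by DESeq2 (adjusted p = 0.015) and by edgeR without robust estimation (0.048). Nop2, Polr1d and Gar1 were not called at an adjusted p under 0.01, and Gar1 not without a filter (adjusted p = 0.093). Depth limited Nhp2 only, at 12 to 37 counts.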

Other observations

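Subunits of the other nuclear RNA polymerases are given here beside the 39.4% of all genes tested that were higher and the 41.4% that were lower. Of 8 RNA polymerase II subunits that Pol I does not share, 4 were higher (50%), 2 lower (25%) and 2 not called, with a median log2 fold change of 0.13. Polr2a, which encodes the largest subunit, was lower, at 2439 ± 38.7 normalized counts against 5030 ± 300.3 (SD, n = 3 each), and its log2 fold change was -1.04 (SE 0.06, edgeR adjusted p = 4.0e-08), beside -1.20 for Polr1a. Polr2c rose (0.79, SE 0.08). Of 11 RNA polymerase III subunits, 6 were higher (54.5%), 3 lower (27.3%) and 2 not called, with a median of 0.60. Polr3d and Polr3e rose by log2 fold changes of 1.66 and 1.35 (SE 0.08 and 0.07). Polr3a, the largest Pol III subunit, which was named after its values were seen, was higher, at 2230.2 ± 193 normalized counts against 1144 ± 42.6, and its log2 fold change was 0.96 (SE 0.08, edgeR adjusted p = 4.2e-07). Whether the polymerases differ in their response was not tested.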
